A study of Rattus norvegicus with 2 samples.

Results

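The Rtl1-antisense miRNAs are the mature products of 5 precursors, mir-431, mir-433, mir-127, mir-434 and mir-136, which lie within Rtl1 in the imprinted Dlk1-Dio3 region of rat chromosome 6. They were taken from the count table by name alone, as every arm listed for miR-127, miR-136, miR-431, miR-433 or miR-434. A total of 9 of the 390 miRNAs in the table met this rule, all of them among its 328 known rat miRNAs. Small RNA was sequenced from hippocampi of adult male Wistar rats, given in the labels as 5 months old, in 2 libraries. The experimental group was sampled 24 hours after status epilepticus (SE), a prolonged seizure evoked by electrical stimulation in the right lateral amygdala. Stimulation lasted 20 min and was resumed in rats that did not yet meet the study's criteria of SE. The control group carried the same electrodes without stimulation. RNA came from the left hippocampus after perfusion with saline, was pooled within each group, and gave 1 library per group. The study describes 6 rats per group and not how many entered each pool, and differences between the 2 libraries therefore have no replicate behind them.

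In the Dlk1-Dio3 region the protein-coding genes, among them Rtl1, are expressed from the paternal chromosome, and the non-coding RNAs and miRNAs from the maternal one. The transcript antisense to Rtl1 is cut into hairpins whose products pair fully with Rtl1 mRNA and can direct its cleavage, as is known best for miR-127 in the placenta. In the brain the miRNAs of the region are mainly neuronal, and miR-431 has been described in the regrowth of sensory axons.

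The mature sequences carry the identity of each member and are shown first. RefSeq (build GRCr8) held 7 of the 9, each read 5′ to 3′ from the plus strand of chromosome 6, with the seed (bases 2 to 8), which pairs with targets, in capitals.
rno-miR-431: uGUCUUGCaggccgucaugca
rno-miR-433-5p: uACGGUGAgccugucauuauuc
rno-miR-433-3p: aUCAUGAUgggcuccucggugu
rno-miR-127-3p: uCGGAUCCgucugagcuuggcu
rno-miR-434-5p: aGCUCGACucaugguuugaacca
rno-miR-434-3p: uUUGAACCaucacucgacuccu
rno-miR-136-3p: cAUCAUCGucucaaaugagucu
The sequences of rno-miR-127-5p and rno-miR-136-5p are not given here.

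All 7 seeds differed from each other, and 0 of the 7 were shared with another of the 693 rat mature miRNAs of the same source. The members are thus neighbours in the genome without being a seed family. Of the 7, 4 began with U, 2 with A and 1 with C. Their median GC content was 47.8%, and that of the 297 counted miRNAs with a sequence was also 47.8%, while 39.7% of those began with U. The mature miR-431 lay at bases 20 to 40 of a hairpin of 114 bases and hence on its 5′ side.

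For mir-433 and mir-434 both arms are annotated, and their hairpins are shown to place the arms. The comparison by arm below uses the counts alone. Capitals mark the mature arms, 5p first.
Mir433: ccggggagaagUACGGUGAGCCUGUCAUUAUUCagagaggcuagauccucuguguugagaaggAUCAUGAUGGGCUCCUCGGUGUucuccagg
Mir434: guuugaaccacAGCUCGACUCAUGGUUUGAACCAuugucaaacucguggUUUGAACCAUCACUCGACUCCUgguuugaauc
The arms were 30 bases apart in the hairpin of mir-433 and 15 apart in that of mir-434. Both arms of mir-434 contained the 9 bases uuugaacca, the longest run shared by any 2 of the 7 mature sequences. The annotation also places mir-3543 on the minus strand across mir-434, and its mature sequence is complementary to all 22 bases of miR-434-3p. MiR-3543 is not among the miRNAs of the count table and could not be analysed here.

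Levels are given as counts per 1000000 clean reads of a library (CPM), and 1 count equals 0.138 CPM after SE and 0.114 CPM in controls. The counts of the whole table summed to 5678090 and 6703056. Intervals are 95% exact intervals (Poisson for a level, Clopper-Pearson for a share or a ratio) and cover counting error only. Together the 9 members were counted 19313 times after SE and 24025 times in controls, or 2667 and 2750 CPM. They made up 0.345% and 0.363% of the counts of known miRNAs. Brain miRNAs fixed as a check of the tissue (3 of 4 counted) summed to 37521 CPM after SE and 44504 CPM in controls. This lower sum came from miR-128-3p (29610 and 40551 CPM), whereas miR-124-3p (6957 and 3262 CPM) and miR-138-5p (954 and 691 CPM) were higher after SE. The erythrocyte list (2 of 3 counted) summed to 28.7 and 13.0 CPM, the leukocyte and microglia list (3 of 6) to 46.1 and 49.9, the oligodendrocyte list (2 of 2) to 266 and 353, and the liver and muscle list (4 of 4) to 263 and 277. None of the counted markers was at 0, and the part of other cells in the values below was not tested. In pooled tissue, fewer cells of a type and less RNA per cell cannot be told apart.

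MiR-434-3p, miR-127-3p and miR-433-3p formed an abundant trio, roughly equal in level, and the other 6 members were far below them in both libraries. MiR-434-3p was the most abundant, at 6530 reads in the library after SE and 9596 in that of the controls, that is 902 CPM (interval 880 to 924) and 1098 CPM (interval 1076 to 1121). MiR-127-3p had 5994 and 6735 counts, or 828 and 771 CPM. MiR-433-3p had 5753 and 6635 counts, or 794 and 759 CPM. In each library the intervals of miR-127-3p and miR-433-3p overlapped, whereas that of miR-434-3p lay above both. Among the 328 known miRNAs, miR-434-3p took place 22 in the control group and place 30 after SE, while miR-127-3p took places 32 and 31 and miR-433-3p place 33 in both.

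MiR-136-5p came next, at 579 reads (80.0 CPM) after SE and 518 reads (59.3 CPM) in controls. MiR-433-5p had 172 and 267 counts, or 23.8 and 30.6 CPM. MiR-127-5p had 165 and 153 counts, or 22.8 and 17.5 CPM, and overlapped miR-433-5p in the experimental group but not in the control group. At the low end were miR-136-3p with 75 and 67 counts (10.4 and 7.67 CPM) and miR-434-5p with 38 and 43 counts (5.25 and 4.92 CPM). MiR-431 was barely detected, at 7 reads after SE and 11 in controls, or 0.967 CPM (interval 0.389 to 1.99) and 1.26 CPM (interval 0.629 to 2.25). The order of the 9 members was the same in both libraries.

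**Figure D1:**
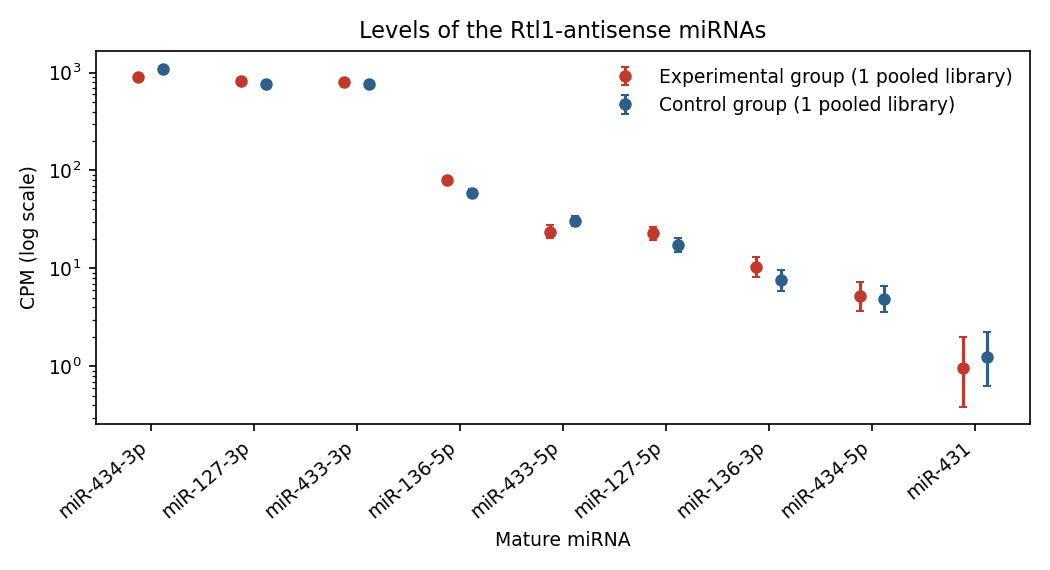
Level of each member in CPM on a log axis, in the experimental group (red) and the control group (blue), each point 1 pooled library with its 95% Poisson interval. The trio of miR-434-3p, miR-127-3p and miR-433-3p lies between 759 and 1098 CPM, and miR-431 lies near 1 CPM.

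The question put to these libraries was which miRNAs differ 24 hours after SE. A total of 8 of the 9 members had at least 30 counts in either library, the minimum for a comparison here, and none of these 8 differed by as much as 2-fold. MiR-431 did not reach the minimum, and its fold of 0.768 had an interval of 0.252 to 2.17. Of the 263 known miRNAs with that minimum, 10.3% were higher after SE and 1.52% lower by a log2 ratio beyond 1, against 0 and 0 of the 8 members. The log2 ratios of the 8 ran from -0.36 to 0.43 with a median of 0.10, and the median of the 263 was 0.11. With so few members these counts are near the background, and nothing particular to the members is read from them.

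The intervals of 4 members lay above 0 and those of 2 below it. Over all 263 these shares were 41.8% above and 24% below, so that the members' counts were near the background. A counting interval beyond 0 compares these libraries, not the conditions. With an assumed coefficient of variation of 0.2 between libraries, the intervals of all 8 included 0, by construction of the wider intervals.

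**Figure D2:**
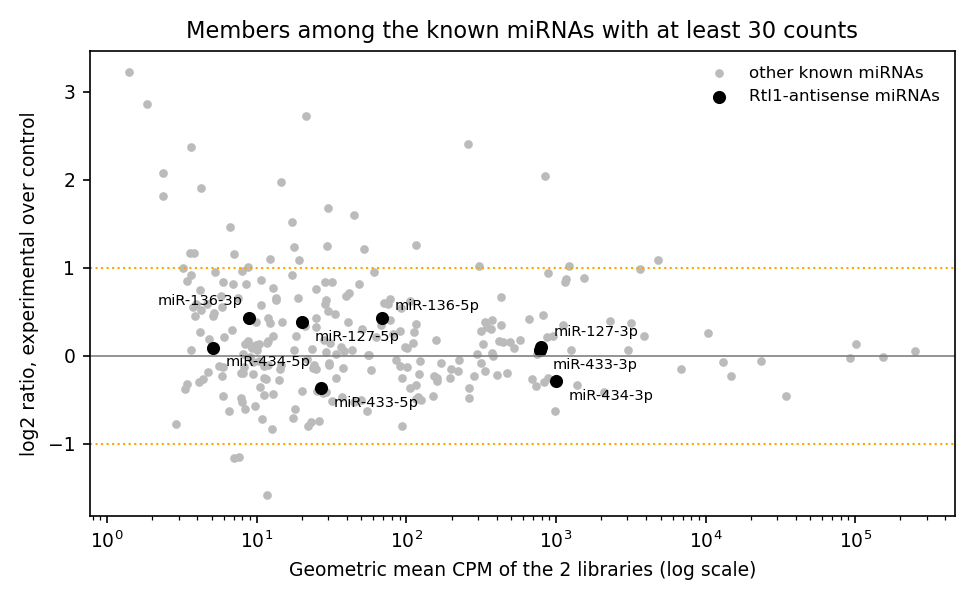
Log2 ratio of CPM (experimental over control) against the geometric mean level on a log axis, for known miRNAs with at least 30 counts in either library, with members in black and dotted lines at log2 ratios of 1 and -1. The 8 members lie between -0.36 and 0.43, and miR-182, which had 0 counts after SE, is not drawn.

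MiR-434-3p, the most abundant, was lower in the library after SE, with a log2 ratio of -0.28 (interval -0.33 to -0.24), a fold of 0.821. MiR-433-5p was lower as well, with a log2 ratio of -0.36 (interval -0.65 to -0.08). MiR-136-5p was higher after SE, with a log2 ratio of 0.43 (interval 0.26 to 0.61), a fold of 1.35, although without scaling its interval of -0.013 to 0.33 included 0. The value of miR-136-3p was also 0.43, but its interval of -0.06 to 0.93 included 0. The log2 ratio of miR-127-5p was 0.38 (interval 0.05 to 0.71), and its interval included 0 with TMM (-0.10 to 0.56), DESeq2's size factors, no scaling or the sum without the 5 most abundant miRNAs.

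The remaining pair of the abundant trio differed least. The log2 ratio was 0.10 for miR-127-3p (interval 0.052 to 0.15) and 0.065 for miR-433-3p (interval 0.014 to 0.12). Their sign depends on the scaling. With TMM, which assumes that most miRNAs are alike, their values were -0.049 and -0.086, and with 3 further scalings they lay between -0.21 and 1.64e-05. For miR-434-5p (log2 ratio 0.09, interval -0.58 to 0.76) and miR-431 (-0.38, interval -1.99 to 1.12) no difference was detectable at this depth.

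Set against the median of the 263 known miRNAs, a measure that no scaling changes, miR-127-3p stood at -0.0099, miR-434-5p at -0.020 and miR-433-3p at -0.048. MiR-136-3p and miR-136-5p stood at 0.32 and miR-127-5p at 0.27, while miR-434-3p stood at -0.40 and miR-433-5p at -0.48. In the ranking of the 263 ratios from the highest, miR-136-3p and miR-136-5p held places 77 and 78, miR-127-3p place 133, and miR-434-3p and miR-433-5p places 213 and 223.

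**Figure D3:**
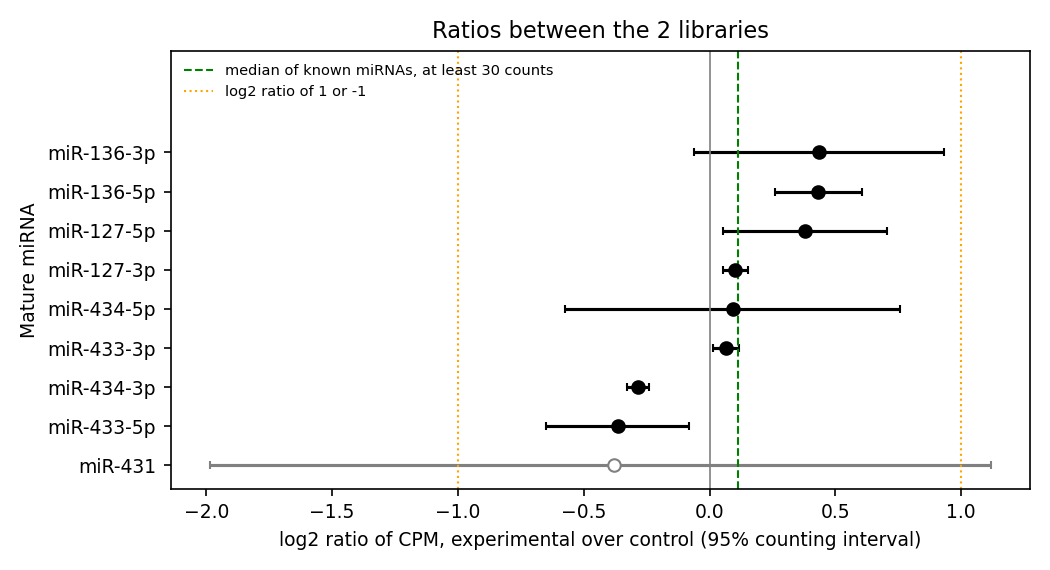
Log2 ratio of CPM, experimental over control, of each member with its 95% counting interval, the open symbol marking miR-431, which had under 30 counts. The dashed line is the median of known miRNAs at 0.11, and the intervals of miR-434-3p and miR-433-5p lie wholly to its left.

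The members could also be compared with each other within the libraries, where scaling plays no part. Of the 36 pairs, 12 differed in their log2 ratios with a 95% interval (exact, conditional, not adjusted for the number of pairs) that did not include 0. MiR-434-3p or miR-433-5p was in 10 of these 12. Both miRNAs were singled out after their values were seen. The share of such pairs over all known miRNAs was not computed, so nothing particular to the members is read from these counts. MiR-127-3p exceeded miR-434-3p by 0.39 on the log2 scale (interval 0.32 to 0.46), and miR-433-3p exceeded it by 0.35 (interval 0.28 to 0.42). MiR-127-3p and miR-433-3p differed by 0.04 (interval -0.03 to 0.11). The other 2 pairs were miR-136-5p with miR-127-3p, by 0.33 in favour of miR-136-5p, and with miR-433-3p, by 0.37 (interval 0.19 to 0.55). Between these 2 libraries the trio therefore did not keep its proportions, since miR-434-3p took a smaller part of it in the library after SE. These intervals leave out variation between libraries, so the difference is not read as one between the conditions.

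By precursor, mir-434 gave 40.1% of the members' counts in the control group and 34.0% after SE. The share of mir-127 was 28.7% and 31.9%, that of mir-433 28.7% and 30.7%, that of mir-136 2.43% and 3.39%, and that of mir-431 0.0458% and 0.0362%. These shares add up to the whole, so that a lower share of mir-434 raises the others. With both arms summed, the log2 ratio was -0.28 for mir-434 (interval -0.33 to -0.24) and 0.051 for mir-433 (interval 0.0003 to 0.10). It was 0.11 for mir-127 (interval 0.06 to 0.16) and 0.43 for mir-136 (interval 0.27 to 0.60). These sums were not run with other scalings. The sign of miR-127-3p and miR-433-3p, which gave most counts of mir-127 and mir-433, depends on the scaling.

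One arm dominated each precursor with counts for both. It was the 3p arm for mir-127, mir-433 and mir-434, and the 5p arm for mir-136. The 3p arm held 97.8% of the counts of mir-127 in the control group (interval 97.4 to 98.1) and 97.3% after SE (interval 96.9 to 97.7). For mir-434 it held 99.6% (interval 99.4 to 99.7) and 99.4% (interval 99.2 to 99.6), which made miR-434-3p 223 times as abundant as miR-434-5p in the control group and 172 times after SE. For mir-136 the 3p arm held only 11.5% in either library, with intervals of 8.99 to 14.3 in the control group and 9.13 to 14.2 after SE.

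Among the members' precursors with counts for both arms, only mir-433 had arms that moved apart between the 2 libraries beyond counting error. The 5p arm held 3.87% of its counts in the control group (interval 3.43 to 4.35) and 2.90% after SE (interval 2.49 to 3.36). The log2 odds ratio of 3p over 5p, experimental over control, was 0.43 (exact interval 0.14 to 0.72). It was -0.28 for mir-127 (interval -0.61 to 0.05), 0.0021 for mir-136 (interval -0.52 to 0.53) and -0.38 for mir-434 (interval -1.04 to 0.29). The wide intervals of mir-136 and mir-434 follow from 75 counts or fewer of the minor arm in each library. The odds ratio intervals were not adjusted for the number of precursors and leave out variation between libraries. How often arms move apart over all known precursors was not computed, so the value of mir-433 is a description.

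**Figure D4:**
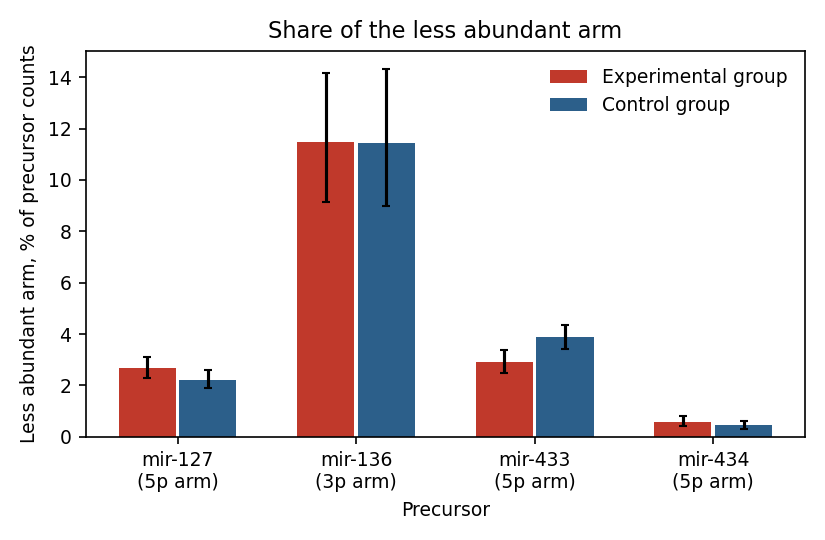
Share of the less abundant arm in the counts of each precursor, in percent, for the experimental group (red) and the control group (blue), with 95% Clopper-Pearson intervals. The 5p share of mir-433 was 2.90% after SE and 3.87% in the control group, with intervals that do not overlap.

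In the GRCr8 annotation 59 miRNA genes lie between Dlk1 and Dio3, 6 of them inside Rtl1 (the members' precursors and mir-3543). On the Meg3 and Rian side (mir-770 to mir-665 before Rtl1, mir-341 and mir-1188 after it) 6 miRNAs had the minimum of 30 counts. All 6 had a positive log2 ratio, although miR-665 and miR-770-3p turned negative without scaling. The median was 0.88, and 3 were beyond 1, beside 10.3% of all 263 known miRNAs with that minimum. The highest were miR-341 at 2.41 (593 CPM after SE and 112 CPM in controls) and miR-770-5p at 1.16, and the lowest were miR-665 at 0.21 and miR-770-3p at 0.25. This list is small and passed the minimum partly through the library in which it was high, since at a minimum of 10 counts its median was 0.37. Of all 11 counted miRNAs of this list, miR-337-3p, miR-493-3p and miR-493-5p were below 0, each with under 30 counts.

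MiR-341, the first counted miRNA gene after mir-136, exceeded the members' log2 ratios by 1.98 (miR-136-3p, interval 1.47 to 2.48) to 2.79 (miR-431, interval 1.29 to 4.40). It was chosen for its rise, known from these same data, so these differences are a description. The step between mir-136 and mir-341, adjacent in the order of miRNA genes, was thus larger than any difference among the members. Large steps between adjacent genes were also seen elsewhere in the region, as from miR-382-5p (0.03) to miR-134-5p (1.52) on the Mirg side.

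On the Mirg side, the cluster from mir-379 to mir-410, 34 miRNAs had the minimum. Their median log2 ratio was -0.06, with 8 intervals above 0 and 10 below, and 3 were beyond 1. Over all 263 known miRNAs, 41.8% of intervals lay above 0 and 24% below, and 10.3% of log2 ratios were above 1. MiR-668 (1.68) and miR-134-5p (1.52) were highest, and miR-369-5p (-0.63) and miR-496-3p (-0.61) lowest. Their summed level was 4096 CPM after SE and 4188 CPM in controls, a log2 ratio of -0.03, beside -0.04 for the sum of the members. The sum of the Meg3 and Rian side had a log2 ratio of 1.75, and of 0.43 without miR-341, which gave 4297 of its 5346 counts. No test of these differences was made, and the region was split into these lists with earlier results of these data known. The member range of -0.36 to 0.43 lay inside that of the Mirg side, from -0.63 to 1.68.

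**Figure D5:**
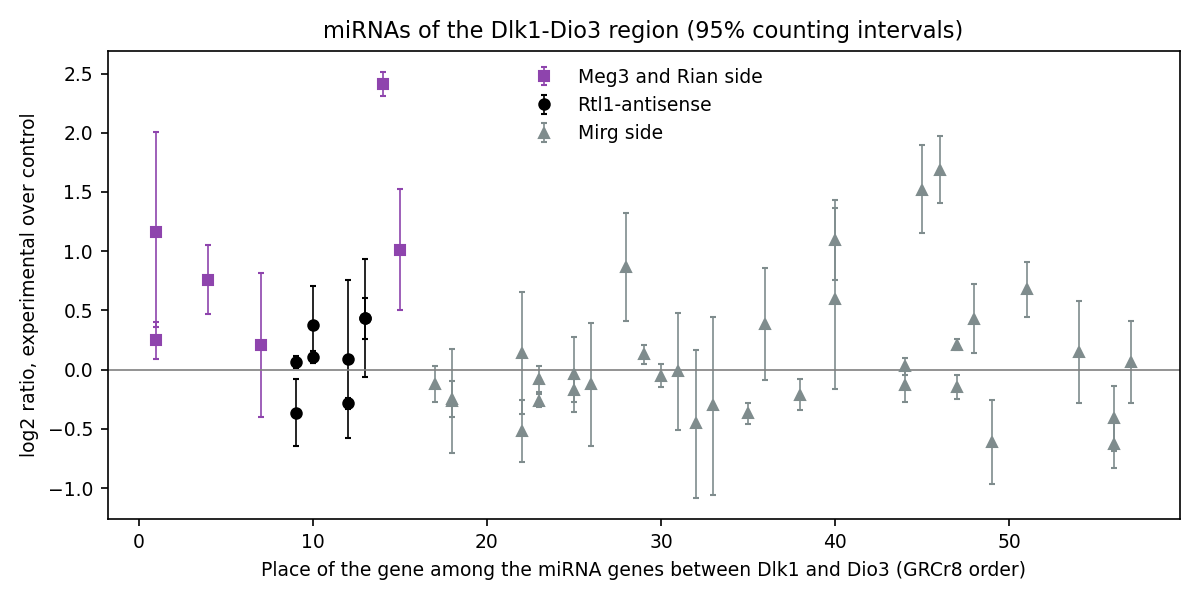
Log2 ratio, experimental over control, of the 48 miRNAs of the region with at least 30 counts, by the place of their gene in the GRCr8 order, with 95% counting intervals. Members (black circles) lie near 0, with genes of the Meg3 and Rian side (purple squares, all above 0 with this scaling by clean reads) before and after them. The Mirg side (grey triangles, median -0.06) follows.

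Outside the region, the 3 known miRNAs nearest to miR-434-3p in log2 CPM over the 2 libraries were miR-29c-3p (distance 0.24), miR-129-2-3p (distance 0.25) and miR-383-5p (distance 0.37). MiR-29c-3p had 814 and 967 CPM, a ratio of -0.25 on the log2 scale, and miR-129-2-3p had 788 and 1219 CPM, a log2 ratio of -0.63. MiR-383-5p, with 1030 and 883 CPM, differed in the other direction, by 0.22. With 2 libraries such likeness is a matter of level.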

How the data were processed

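Pooled hippocampal small RNA was sequenced in 1 library per group. The authors deposited counts of reads per miRNA, which are whole numbers without scaling although the table's header speaks of normalized signal. The study discarded low-quality, short and single-read sequences. The labels name build rn5, and the aligner and miRBase release are not given in the sources used here. The labels also describe an array protocol and another sequencer, and the study's description was used. A further 2 deposited columns hold p-values of the authors' comparison and were not used.

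Counts were divided by the clean reads the study states, and counts under 3 were set to 3 in ratios. Known miRNAs with at least 30 counts in either library formed the background. No p-value was computed. The intervals were tested on simulated data. Annotation (GRCr8) served for sequences, names and order. The members, lists and rules were chosen with earlier results of these data known. Named were all members, the 2 highest and 2 lowest of each list and the 3 miRNAs nearest the most abundant member. Also named were tissue markers and, after seeing values, miR-182 and miR-3543. Alternatives were 6 scalings, a pseudocount of 1, other minimums and thresholds, all rows as background and assumed coefficients of variation of 0.2 and 0.4. Software was Python 3.11.15, scipy 1.17.1, R 4.3.3, edgeR 4.0.16 and DESeq2 1.42.0.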

Additional observations from a re-analysis of the deposited data

How the results depend on the processing

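No paired analysis was possible because SE and control hippocampi came from separate rats. With 1 pooled library per group, no replicate could be left out. Other scalings shift every log2 ratio alike. In the order sum of known miRNAs without the 5 most abundant, TMM, DESeq2's size factors and no scaling, the shift was -0.13, -0.15, -0.10 and -0.27. MiR-127-3p then had log2 ratios of -0.024, -0.049, 1.64e-05 and -0.17, miR-433-3p of -0.062, -0.086, -0.038 and -0.21, and miR-434-3p of -0.41, -0.44, -0.39 and -0.56. MiR-136-5p had 0.16 without scaling. Members with an interval above 0 numbered 1, 1, 1 and 0 in place of 4, and those below 0 numbered 3, 3, 2 and 4 in place of 2. Over all 263 known miRNAs with the minimum, 32.3%, 30.4%, 34.2% and 23.6% lay above 0. The shares below 0 were 31.9%, 33.5%, 29.7% and 41.4%. The median of the members became -0.030, -0.054, -0.0051 and -0.17, that of all known miRNAs -0.015, -0.039, 0.0099 and -0.16, that of the Meg3 and Rian side 0.76, 0.73, 0.78 and 0.61, and that of the Mirg side -0.19, -0.22, -0.17 and -0.34. Of the known miRNAs with an interval beyond 0, 63.6% were higher with the clean reads and 50.3%, 47.6%, 53.6% and 36.3% with these scalings. With the sums of all or of known counts the members above 0 numbered 3, since the interval of miR-433-3p then included 0 (-0.018 to 0.085 and -0.015 to 0.087). The shares of the 263 above 0 were then 39.5% and 39.9%. With coefficients of variation of 0.2 or 0.4 assumed, 0 intervals lay above and 0 below 0, by construction of the wider intervals. The median of the Meg3 and Rian side was 0.37 at a minimum of 10 counts and 0.76 at 100. In the settings run, no member passed a log2 ratio of 1. The arm odds ratios moved less than their intervals with a pseudocount of 1. Depth limits miR-431, miR-434-5p and the minor arm of mir-136.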
